A study of Saccharomyces cerevisiae W303 with 4 samples.

Results

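Convergent intergenic regions are the stretches of the yeast genome between the ends of 2 neighbouring coding sequences that point towards each other. They were taken from the R64 annotation as nuclear intervals whose left gene lies on the plus strand and whose right gene lies on the minus strand. Of 1538 such neighbours, 23 had coding sequences that touched or overlapped, 180 were less than 100 bp apart, and 77 were separated by a tRNA gene, a long terminal repeat, a Ty element, a centromere or rDNA. The remaining 1258 regions were kept, out of 5253 intergenic regions of any orientation that met the same rule. The members have a median length of 243 bp, reach up to 4527 bp and together span 400.6 kb. The rule itself uses no measured value.

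The experiment was a ChIP-seq of Zuo1 in asynchronous W303 yeast, in which every library came from a strain that carries Zuo1 with a C-terminal Myc tag. There are 2 libraries of DNA precipitated with an antibody against Myc (IP) and 2 libraries of input chromatin. The libraries were pooled before the peaks were called, so the deposited list has 1 fold enrichment of IP over local background for each peak and no value for a single library. The stated peak call names an input file beside the IP files and an IP file among the controls, and what this did to the fold enrichment was not tested. No spread between replicates can therefore be given, and chromatin of cells without the tag was not analysed here. Of 1594 listed peaks, 1543 lie on the 16 nuclear chromosomes, which is 0.128 summits per kb. Each peak has a summit, the base with its highest signal. The number of IP fragments there can be recovered from the fold enrichment and the p-value, and its median over nuclear peaks was 92.0.

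Zuo1 is a J-domain protein that forms the ribosome-associated complex with Ssz1 and assists the chaperone Ssb at the ribosome, and it is also found in the nucleus. The study asked where on chromatin it binds, with regard to G-quadruplex (G4) motifs. Between convergent genes no promoter of either neighbour is present. Instead, the interval holds the 3′ ends of both transcripts, where RNA polymerase II terminates and the mRNA is cleaved and polyadenylated, and in budding yeast cohesin is known to gather there. These regions are rich in A and T, with a median GC content of 29.1% here, against 33.9% in tandem regions (both genes on the same strand) and 36.2% in divergent regions (genes pointing away from each other).

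The sequence at the summit is shown for the 6 members whose peak had a fold enrichment of 3 or more, since these carry the strongest Zuo1 signal between convergent genes. Each line gives 30 bases of the plus strand of R64, with the summit base in capitals.
CDC26/RSC8, chrVI:227340-227369: gcatatccgcatacgCacacgcacacgcac
GPP1/RPL34B, chrIX:256049-256078: ttcggatgatctgccGtgacaggtggttcg
MBP1/PSA1, chrIV:355497-355526: ttctttattttctttTttttttttattttt
VMA1/RPL41A, chrIV:130167-130196: acaattacaatgataAataacttttgtttt
MIN3/SSO2, chrXIII:626758-626787: aaaaaaaattataatActaattgttaaaaa
YOX1/RPS18B, chrXIII:222791-222820: gatgtttaccgtataAaacttaattatatt

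None of the 6 windows holds a run of 3 G or 3 C. Their base composition differed widely, with a GC content of 60.0% at CDC26/RSC8 and 56.7% at GPP1/RPL34B, but 6.67% at MBP1/PSA1 and at MIN3/SSO2. Over all 68 summits inside members the 30-base window had a median GC content of 26.7%. GGG on either strand was present in 7 windows (10.3%), while 17.8% of all 30-base places in the convergent regions and 27.2% of those in the nuclear genome hold it. The letters TATATA, which occur in the efficiency element of yeast 3′-end processing, were also found in 7 windows (10.3%), beside 8.36% of places in the convergent regions and 1.62% in the genome. Such a match describes the letters only.

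A summit lay inside 66 of the 1258 convergent regions (5.25%, Wilson 95% interval 4.14 to 6.62). When every nuclear place of the same lengths was counted, 3.93% held a summit, which corresponds to 49.5 regions. The observed number was thus 1.33 times the expected one, with an interval of 1.03 to 1.70 from the Poisson limits of the count. Intervals here and below cover counting error only. They treat regions as independent, and none of them is a test over cultures. The other orientations lay on the opposite side. Tandem regions held a summit in 103 of 2603 cases, where 6.27% of places of equal length do (ratio 0.631, interval 0.515 to 0.765). In divergent regions it was 66 of 1392, where 7.49% of places do (ratio 0.633, interval 0.489 to 0.805). Expressed per length, there were 0.170 summits per kb between convergent genes, against 0.0810 in tandem and 0.0812 in divergent regions. The rate between convergent genes was 2.09 times that of tandem regions (exact interval 1.52 to 2.86) and 2.09 times that of divergent regions (1.48 to 2.95). Chromosome XIII contributed most, with 12 of 103 members, and without it the ratio was 1.18 with a lower limit of 0.886. The lower limit was also below 1 without chromosome IV (0.980), V (0.981), IX (0.991) or XVI (0.991). The outcome depended on the places as well. Among places that lie wholly between coding sequences the ratio was 0.811 (0.627 to 1.03). It was 1.56 (1.21 to 1.98) once these places also had to be free of the features that the members lack. Tandem and divergent regions stood at 0.390 and 0.405 among the former places. Among the latter they stood nearer to 1, at 0.809 (0.661 to 0.982) and 0.883 (0.683 to 1.12).

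The excess was made of weak peaks. Peaks of less than 3-fold had a summit in 60 members, while 2.79% of places of equal length, or 35.1 regions, hold such a summit (ratio 1.71, interval 1.31 to 2.20). Peaks of 3-fold or more had one in 6 members, against 1.17% of places, or 14.8 regions (ratio 0.406, interval 0.149 to 0.885). The direction therefore turned with the strength of the peaks. Below 3-fold the rate per kb was 2.92 times that of tandem (2.04 to 4.16) and 3.92 times that of divergent regions (2.55 to 6.11). From 3-fold on it was 0.535 times that of tandem (0.185 to 1.28) and 0.359 times that of divergent regions (0.124 to 0.858).

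**Figure D1:**
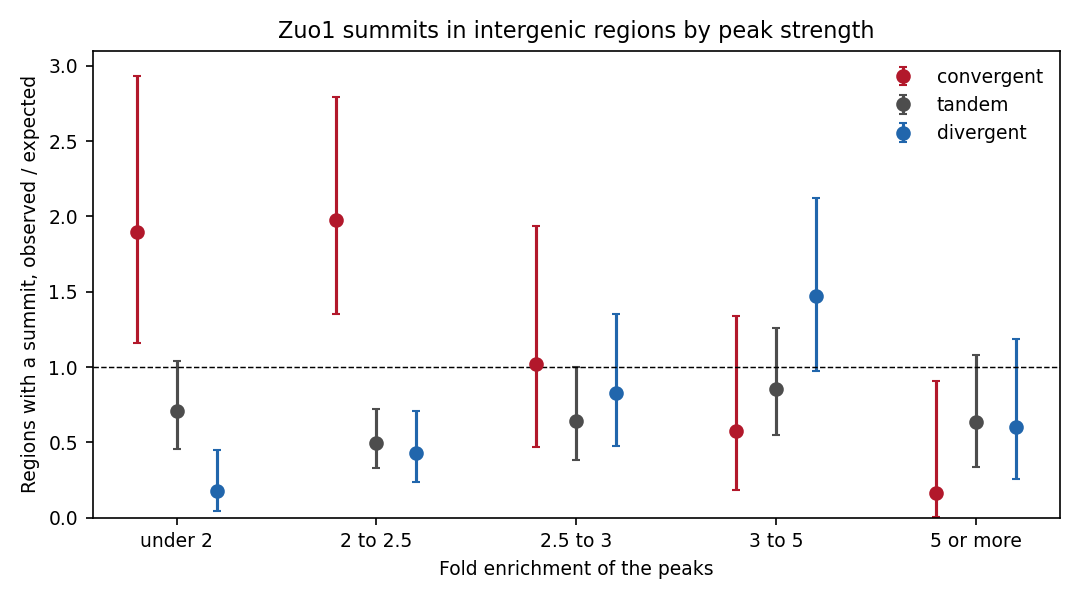
Number of regions with a summit divided by the number expected from all nuclear places of equal length, for peaks in 5 classes of fold enrichment; bars are 95% Poisson limits of the count. Convergent regions (red) stand at 1.90 and 1.98 below 2.5-fold, at 1.02 from 2.5 to 3, at 0.575 from 3 to 5 and at 0.162 above, where they hold 1 summit; the classes from 2.5-fold on hold 9, 5 and 1 members.

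The median fold enrichment was 2.15 at the 68 summits between convergent genes (quartiles 1.92 and 2.40), compared with 2.46 at the 1475 other nuclear summits (2.07 and 3.34). In tandem regions the median was 2.54 and in divergent regions 3.08. Of the convergent summits 91.2% were below 3-fold, and of the other nuclear ones 69.0%. The lower fold came with fewer IP fragments, a median of 77.0 at convergent summits and 93.0 at the others. The local background was nearly equal, with medians of 35.8 and 36.7 fragments.

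**Figure D2:**
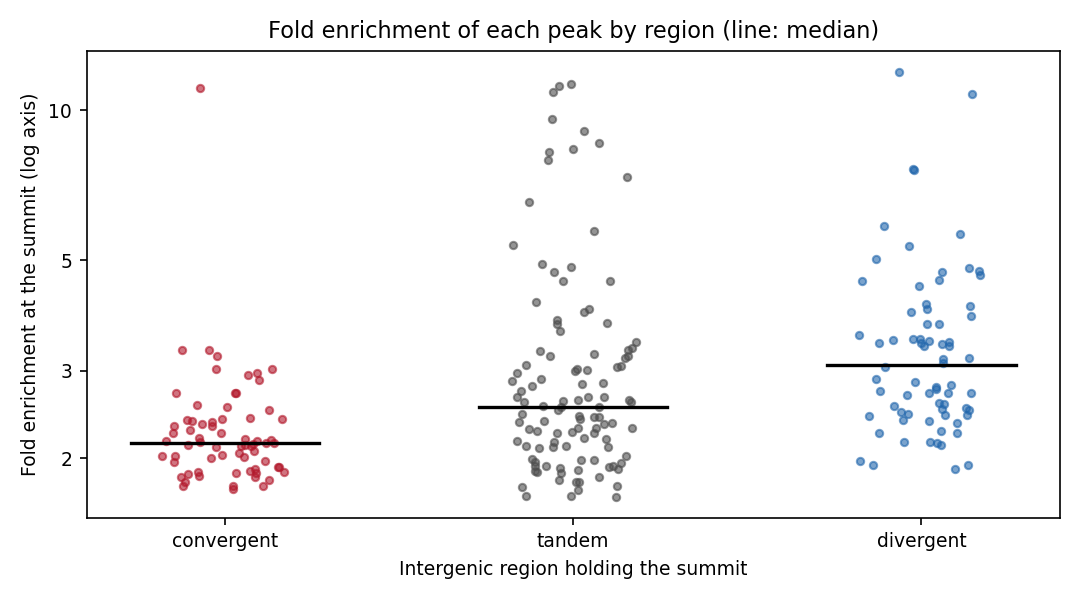
Fold enrichment at each summit in convergent, tandem and divergent regions, 1 point per peak on a log axis, with the median as a line. All convergent summits but 1 lie at 3.30 or below, while 34.5% of tandem and 51.4% of divergent summits reach 3-fold.

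The exception was the region of 175 bp (chrVI:227338-227512) between CDC26 (YFR036W), a subunit of the anaphase-promoting complex, and RSC8 (YFR037C), a subunit of the chromatin remodeller RSC. Its peak reached 11.1-fold with 390 IP fragments over a background of 34.2. The summit at 227355 on chromosome VI is 18 bp past the stop codon of CDC26, and the peak of 699 bp runs 267 bp into CDC26 and 257 bp into RSC8. The next members were far weaker. GPP1/RPL34B had 3.30-fold with 121 fragments, and MBP1/PSA1 also had 3.30-fold with 113. MBP1 encodes the DNA-binding subunit of the G1 regulator MBF and PSA1 the GDP-mannose pyrophosphorylase, and the peak extends 1232 bp into PSA1. VMA1/RPL41A, beside a subunit of the vacuolar ATPase, had 3.21-fold, MIN3/SSO2, beside a t-SNARE of the plasma membrane, had 3.03-fold, and YOX1/RPS18B, beside a homeodomain repressor, 3.02-fold.

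Just below 3-fold lay RPL33A/FRK1 with 2.96, CMP2/IMD4 with 2.94 and YHR140W/RPL42B with 2.88. CMP2 encodes a catalytic subunit of calcineurin and IMD4 an IMP dehydrogenase. MRH1/LYS14 followed with 2.71, NOP7/SRB5 with 2.70 and MAK5/SUP45 with 2.70. Nop7 and Mak5 act in the assembly of the large ribosomal subunit, and Sup45 is the release factor eRF1. The first 15 were completed by SSU72/POP1 with 2.55, CRF1/HTB1 with 2.53 and NCE102/SUE1, where 87 IP fragments stood over a background of 34.1. The weakest summits were those in RPL21B/ATP4 with 1.74, KRE6/YPR159C-A with 1.76, ARF3/RKI1 with 1.76 and MIS1/RPL19A with 1.76. Of these 66 regions, 2 held a pair of summits. YCK3/DSE1 had 2.41 and 2.19, and RPS26B/PMD1 had 2.02 and 1.88.

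Neighbours were also grouped by 5 lists of genes, those of cytosolic ribosomal proteins, glycolysis and fermentation, translation factors, cytosolic chaperones and histones. These lists were chosen with earlier results of these data known, so the shares beside them are descriptive. Of the 1258 members, 94 border a gene of these lists, and 22 of them held a summit (23.4%, interval 16.0 to 32.9). Most of these lie beside ribosomal protein genes, which 68 members border. Of the 68, 20 held a summit (29.4%, interval 19.9 to 41.1), beside 5.25% over all members and 4.38% of places of equal length. The 13 members beside genes of the large subunit were those of RPL34B (3.30), RPL41A (3.21), RPL33A (2.96), RPL42B (2.88), RPL20A (2.32), RPL38 (2.15), RPL16A (2.12), RPL40B (2.12), RPL33B (2.05), RPL23B (2.01), RPL43A (1.92), RPL19A (1.76) and RPL21B (1.74), each with its fold enrichment. The 7 beside genes of the small subunit were those of RPS18B (3.02), RPS11B (2.38), RPS28B (2.28), RPS19B (2.18), RPS17A (2.17), RPS11A (2.06) and RPS26B (2.02). Their median of 2.16-fold was close to the 2.13-fold of the 44 members with a summit and no listed gene beside them. Many of these genes are duplicated, so reads in their coding sequences may be shared between copies.

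In 13 of these 20 regions the summit lay nearer to the stop codon of the ribosomal protein gene than to that of its neighbour. A summit placed at random in a region would be nearer to either stop codon equally often, and a departure from this was not tested. Over all 20 the summit was a median of 150 bp past the stop codon of the ribosomal protein gene. This distance was not set beside the one expected from the lengths of these regions. The peak ran into the coding sequence of the ribosomal protein gene in 15 regions and into that of the other gene in 9, and 6 peaks reached both. For RPS11A the summit was 5 bp past the stop codon, for RPS26B 10 bp and for RPL43A 18 bp. Of the 20 ribosomal protein genes beside these regions, 8 also had a summit in their own coding span. The other 50 ribosomal protein genes that face a member had no summit there. Of these, 40 had a summit in their own coding span, and 42 face a region that a peak overlapped. Over all members without a summit, 19.1% had a flanking gene with a summit in its coding span. A peak overlapped 13.4% of all members. Among the 50 genes, RPL11A, RPL9A and RPS25A were the 3 with no peak on the gene or the region. Regions of the other orientations beside ribosomal protein genes held summits too. It was 19 of 63 tandem regions on the 3′ side of such a gene (30.2%, interval 20.2 to 42.4), beside 6.98% of places of equal length. Divergent regions, which hold no 3′ end of the gene, had a summit in 17 of 68 cases (interval 16.2% to 36.4%), beside 9.91% of places of equal length.

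Among the 1164 members that border no gene of the 5 lists, 44 held a summit (3.78%), with 45.5 expected (ratio 0.967, interval 0.702 to 1.30). The lists were chosen with earlier results of these data known, so leaving out their neighbours can lower the ratio by that choice alone. The ratio above 1 over all members was not seen among those that border none of the listed genes. They still stood above the other orientations, as the ratio was 0.483 in tandem regions (0.379 to 0.608) and 0.494 in divergent regions (0.363 to 0.657) that border no listed gene. The other lists were small. Beside translation factor genes 1 of 4 members held a summit, at MAK5/SUP45 (interval 4.56% to 69.9%), where 2.57% of places of equal length do. Beside histone genes it was 1 of 6 (3.01% to 56.4%), where 4.55% of places do. This was CRF1/HTB1, next to the gene of histone H2B. It was 0 of 11 beside genes of glycolysis and fermentation (upper limit 25.9%, places 3.60%). Beside those of cytosolic chaperones it was 0 of 5 (upper limit 43.4%, places 4.40%).

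**Figure D3:**
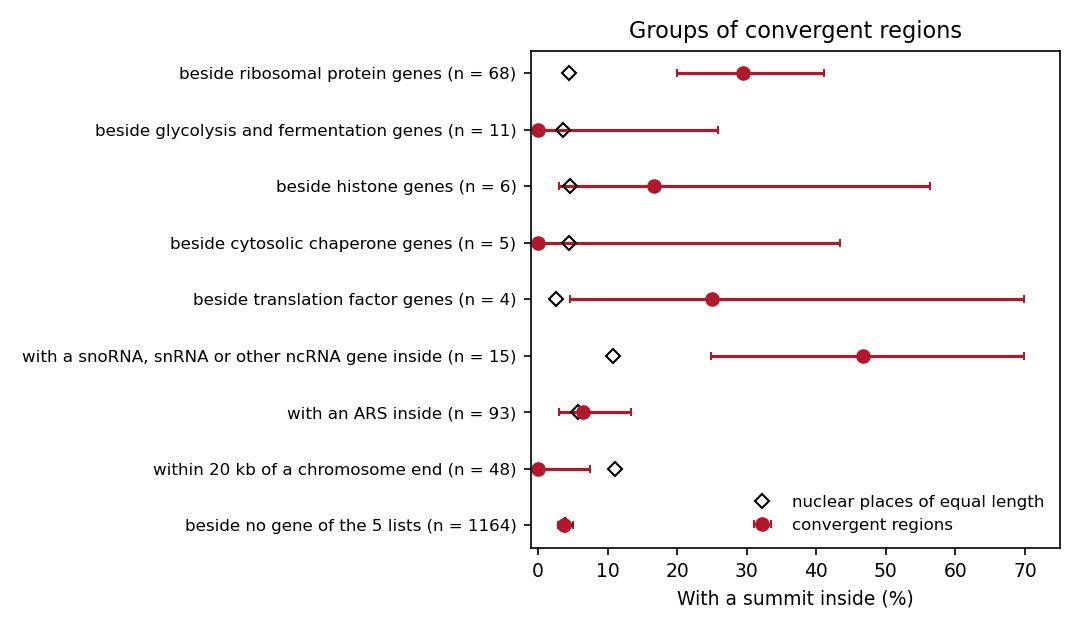
Percent of convergent regions with a summit inside (red, with 95% Wilson intervals) and percent of nuclear places of equal length that hold one (open diamonds), for groups of members; groups can share members. Members beside ribosomal protein genes stand at 29.4% and members with a small RNA gene inside at 46.7%, while those beside no listed gene, at 3.78%, lie on their diamond.

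Some members hold all or part of an RNA gene between the convergent coding sequences. Of 15 members with a snoRNA, snRNA or other ncRNA gene, 7 held a summit (46.7%, interval 24.8 to 69.9), where 10.8% of places of equal length do. In 6 of the 7 the nearest summit was past the 3′ end of the RNA gene, by 15 to 266 bp. These were the snoRNA genes SNR83 (3.03-fold, 119 bp), SNR32 (2.88-fold, 236 bp), SNR86 (2.40-fold, 159 bp), SNR37 (2.19-fold, 161 bp) and SNR4 (1.88-fold, 15 bp), which guide the modification of rRNA, and SNR19 (2.55-fold, 266 bp), which encodes the U1 snRNA. At LSR1, the gene of the U2 snRNA, the summit of 2.32-fold lay inside the gene. A stop codon was closer than the RNA gene to the summits at SNR32 (27 bp), SNR86 (60 bp), SNR19 (125 bp) and SNR37 (157 bp). It was farther away at SNR83 (148 bp) and SNR4 (290 bp). No peak lay on SNR19 itself. These RNA genes share their interval with the ends of the coding genes, and the signal of each cannot be told apart. Of the 8 members with an RNA gene and no summit, 5 had a peak on the RNA gene, among them those with SNR3, SNR11, SNR34 and SNR63. The share of places of equal length overlapped by a peak was not counted for these members. SNR11, SNR34 and SNR63 lie beside the ribosomal protein genes RPL36A, RPS29A and RPL31A. Likewise, SNR32 and SNR4 lie beside RPL42B and RPS26B.

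Origins of replication lie in some members. Of 93 members with an annotated ARS, 6 held a summit (6.45%, interval 2.99 to 13.4), beside 5.72% of places of equal length. These were CRF1/HTB1, YCK3/DSE1, PAM16/GSM1, YPT11/RPS19B, PCL2/CDC48 (2.03-fold) and TOM1/HEH2 (1.87-fold). Within 20 kb of a chromosome end, 0 of 48 members did (upper limit 7.41%), while 11.0% of places of equal length hold a summit. The 3 longest members without any peak were YAL067W-A/SEO1 with 4527 bp, FDC1/IRC4 with 3530 bp and SGE1/ARR1 with 2482 bp. Among members of 300 to 499 bp, 28 of 282 held a summit, with 13.3 expected (ratio 2.10, interval 1.40 to 3.04). In tandem regions of this length it was 20 of 972 with 48.0 expected, and in divergent regions 6 of 321 with 16.0 expected. Members of 100 to 199 bp held a summit in 7 of 463 cases with 8.75 expected, and those of 200 to 299 bp in 14 of 362 with 11.4 expected. Tandem regions of 200 to 299 bp held one in 4 of 605 cases with 19.4 expected. Members of 500 bp or more did in 17 of 151 cases with 16.0 expected (ratio 1.06, interval 0.620 to 1.70). At that length the orientations lay closer together, with overlapping intervals. The ratio was 0.856 (0.678 to 1.07) in tandem and 0.781 (0.596 to 1.01) in divergent regions.

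Summits were spread over the width of the regions. When each region was divided into 3 equal parts, 22 summits fell into the left part, 23 into the middle and 23 into the right. The nearest stop codon was a median of 91.0 bp away (quartiles 40.0 and 153), and 21 of the 68 summits lay within 50 bp of one. The regions are short, and the share of their bases within 50 bp of a stop codon was not set beside this number. The peaks had a median length of 412 bp and often reached beyond the region. In 15 cases the peak stayed between the genes, in 39 it reached into 1 gene and in 14 into both. CLB2/CLB5, between the genes of 2 B-type cyclins, held a peak of 1.86-fold that touched neither, with its summit 339 bp from the stop codon of CLB2. In DIP2/ZRT2 the summit of 2.15-fold was 4 bp from the end of ZRT2, and the peak of 801 bp covered parts of both genes.

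**Figure D4:**
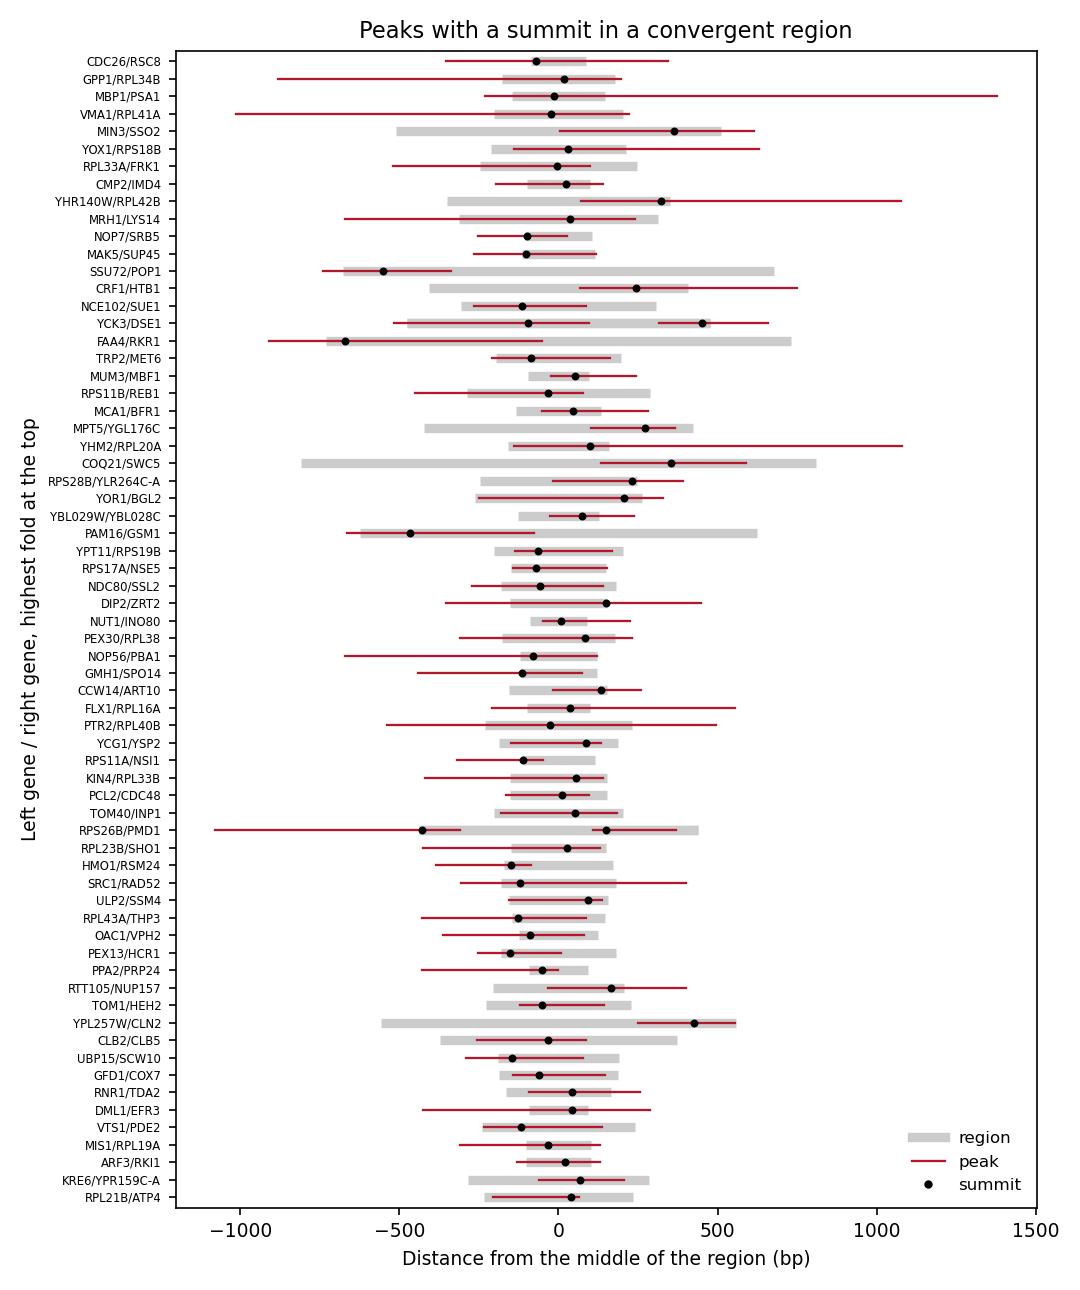
The 66 convergent regions with a summit, ordered by fold enrichment from top to bottom, each as a grey bar centred on its middle, with the peak as a red line and the summit as a black point; the horizontal axis is the distance in bp. Of the 68 peaks, 15 stay within the grey bar, 39 leave it on 1 side and 14 on both.

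The density of summits around the 2516 stop codons that face a member was between 0.0797 and 0.127 per kb in each 100 bp of the 1000 bp before the stop codon. These windows were not cut at the start of the gene, so for shorter genes they include sequence before it. It was 0.187 per kb (interval 0.137 to 0.248) from 200 to 300 bp past the stop codon and 0.131 in the next 100 bp. Windows past the stop codon were not cut at the end of the region. With a median member length of 243 bp, many windows beyond 200 bp lie partly or wholly in the facing gene. Both stop codons of a convergent region entered, so the same summit can be counted from each, and the intervals do not allow for this. A tandem region entered through the stop codon of its upstream gene only. The 2603 stop codons that face a tandem region had another profile. Their highest density, 0.311 per kb (0.247 to 0.387), lay from 200 to 100 bp before the stop codon, and past it the density was 0.0538 per kb (0.0294 to 0.0902) in the same window from 200 to 300 bp. The last 300 bp of coding sequence before a convergent stop codon held a summit in 94 of 2516 cases (3.74%), where 3.75% of places of equal length do (ratio 0.995, interval 0.804 to 1.22). Before a tandem stop codon it was 164 of 2603 (ratio 1.69, interval 1.44 to 1.96).

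**Figure D5:**
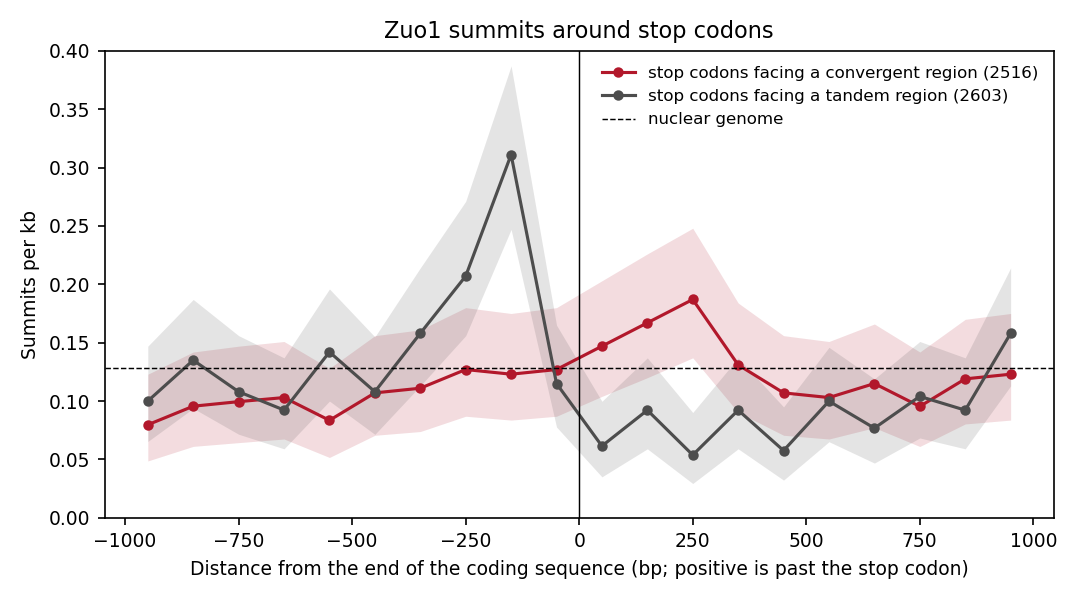
Summits per kb in 100 bp windows around the end of the coding sequence, for stop codons that face a convergent region (red) or a tandem region (grey), with 95% Poisson limits as shading and the nuclear mean of 0.128 as a dashed line. The convergent profile is highest past the stop codon, at 0.187, and the tandem profile before it, at 0.311. Windows were not cut at the ends of regions or genes. Both stop codons of a convergent region entered, so the same summit can be counted from each, which the limits do not allow for.

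A further 102 members were overlapped by a peak whose summit lay elsewhere. Of the 104 overlaps, 99 came from a peak with its summit inside a flanking gene. A fold enrichment of 3 or more was seen in 43 of the 104, beside 463 of all 1543 nuclear peaks. Together with the members that held a summit, 168 (13.4%) were overlapped by a peak, beside 11.9% of places of equal length. The other 1090 members (86.6%) had no peak at all, a share close to that of such places. A flanking gene carried a summit in its coding span in 21 of the 66 members with a summit (31.8%, interval 21.8 to 43.8), and in 228 of the 1192 without one (19.1%, interval 17.0 to 21.5).

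G4 motifs were rare in these regions. With a motif taken as 4 runs of at least 3 G (or C, on the other strand), separated by 1 to 25 bases, it was present in 5 of 1258 convergent regions, compared with 85 of 2603 tandem and 85 of 1392 divergent regions. None of the 68 peaks with a summit in a convergent region overlapped a motif, while 137 of the 1475 other nuclear peaks did (9.29%). Of the 5 members with a motif, COQ21/SWC5 held a summit, 318 bp from the middle of its motif of 92 bp, and 2 further peaks overlapped the region, the stronger with 3.67-fold. YLL066W-B/YLL066C near the left end of chromosome XII was overlapped by a peak of 9.55-fold with its summit outside. The remaining 3, YGR035W-A/CAX4, QDR1/RPI1 and NHA1/SLS1, had no peak. The motif of NHA1/SLS1 is shown because it is an almost unbroken G run on the plus strand of chromosome XII from 421491 to 421507. It meets the definition only because the bases between runs may themselves be G, which splits the longer tract into several runs. Tracts of 3 or more G are in capitals.
NHA1/SLS1: GGGGGaGGGGGGGGGGG

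The GC content of members with a summit was 29.5% (median, quartiles 27.5 and 31.3) and that of members without was 29.0% (26.3 and 31.9). Members with a summit were longer, with a median of 360 bp against 238 bp. A run of GGG or CCC was present in 84.8% of members with a summit and in 76.3% of those without, a comparison in which length was not matched.

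Other members with a summit bordered genes of varied roles. At TRP2/MET6, between genes of tryptophan and methionine synthesis, the peak had 2.39-fold with 86 IP fragments, and its summit lay 111 bp past the stop codon of TRP2. MUM3/MBF1 and MCA1/BFR1 had 2.39-fold and 2.36-fold, with their peaks reaching 147 and 146 bp into MBF1, a transcriptional coactivator gene, and BFR1. MPT5/YGL176C (2.34-fold), beside the gene of an RNA-binding protein of the Puf family, held its peak wholly between the genes. At NOP56/PBA1 (2.14-fold) and GMH1/SPO14 (2.13-fold) the peak extended 552 bp into NOP56, which encodes a protein of the box C/D snoRNPs, and 322 bp into GMH1. YOR1/BGL2 and YBL029W/YBL028C had 2.25-fold each, NDC80/SSL2, beside a kinetochore gene, 2.16-fold, and CCW14/ART10 2.12-fold. TOM40/INP1, beside the gene of the mitochondrial import pore, had 2.02-fold.

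Others of these members had less than 2-fold. ULP2/SSM4, beside a SUMO protease gene, had 1.96-fold with 61 fragments, OAC1/VPH2 1.92-fold with 72 and PEX13/HCR1 1.90-fold with 73. PPA2/PRP24 had 1.88-fold, RTT105/NUP157 1.87-fold and YPL257W/CLN2, beside a G1 cyclin gene, 1.87-fold with its summit 133 bp past the stop codon of CLN2. Lower values were those of UBP15/SCW10 with 1.84, GFD1/COX7 with 1.83, DML1/EFR3 with 1.81 and VTS1/PDE2 with 1.79, the last with 60 fragments, the lowest number at any summit in a member. DML1/EFR3 is 184 bp long, and its peak of 712 bp covered it whole and entered both genes.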

How the data were processed

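ChIP-seq of Myc-tagged Zuo1 was represented by 1 deposited peak list from 2 IP and 2 input libraries. Single-end reads of 64 bp were mapped by the authors with bowtie (the submitters' processing notes name Bowtie2) on sacCer3, and they called narrow peaks with MACS 2.0 (q 0.05) on pooled libraries. The stated command lists an input file with the IP files and an IP file with the controls, and the values were read here as IP over input. The header belongs to another MACS table, so columns were read by position. The deposited values are the fold (ratio) at the summit, its −log10 p, a score (−log10 q on a larger scale, rounded down) from which the q minimum was taken, and other fields, the coordinates.

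Regions came from the R64 annotation of strain S288C, whose coordinates are those of sacCer3, and are counted from 1. Expected numbers come from counting every nuclear place of each region's length. Intervals are 95% (Wilson for shares, Poisson for ratios, exact for rate ratios). IP fragments were recovered from fold and p, with 1 added to counts, and gave the deposited −log10 p within 0.01 in 100% of nuclear peaks. No test was possible without values per library. The scoring was tested on simulated data. Named are the 15 strongest members with a summit, others of 3-fold or more, members with several summits or a G4 motif, and those beside genes of 5 lists. Members named for a position near a stop codon, a small RNA gene, their length, their weakness, the absence of a peak or the role of a neighbour were chosen after their values were seen. Members and lists were chosen with earlier results of these data known. Mitochondrial peaks were left out. Computation used SciPy 1.17.1 and NumPy 2.4.6 under Python 3.11.15, and figures used matplotlib 3.10.9.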

Additional observations from a re-analysis of the deposited data

How the results depend on the processing

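The number of 66 convergent regions with a summit was 168 with any overlap of 1 bp (ratio 1.12) and 6 with peaks of 3-fold or more, where the ratio of observed to expected fell to 0.406, against 1.33 with all peaks. With peaks under 3-fold it was 1.71. The median fold of 2.15 was 3.25 with the 3-fold minimum, which follows from that minimum. Without members beside listed genes the ratio was 0.967. It was 0.811 when places had to lie between coding sequences, and 1.56 when these places also had to be free of tRNA genes, repeats, centromeres and rDNA, as the members are. The settings with peaks under 3-fold, without listed genes and with places between coding sequences, and the removal of chromosomes, were added after seeing the data. The ratio was 1.28 (0.959 to 1.67) for members without other annotated features, 1.67 with places free of the barred features, and between 1.18 and 1.39 when each of the 16 chromosomes was left out in turn. A minimum −log10 q of 3, a minimum length of 200 bp, removal of the terminal 20 kb and places on the same chromosome gave 1.35, 1.45, 1.51 and 1.34. The ratio at the coding ends was 0.995, and 0.940 with 500 bp and 1.01 with peaks of 3-fold or more. No paired analysis was possible because the libraries were pooled before the peaks were called, and for the same reason no replicate could be left out.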

Other observations

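Among the remaining members with a summit were several beside genes of chromosome biology, chosen after their values were seen. HMO1/RSM24, beside the gene of an HMG-box protein, had 2.00-fold, YCG1/YSP2, beside a condensin subunit, 2.10-fold, and SRC1/RAD52, beside the recombination gene RAD52, 1.97-fold. NUT1/INO80, beside the ATPase of a chromatin remodeller, had 2.15-fold and RNR1/TDA2, beside the large subunit of ribonucleotide reductase, 1.83-fold. All of these lie below the nuclear median of 2.44. The 2 copies of a duplicated ribosomal protein gene both faced a member with a summit at RPS11A (2.06) and RPS11B (2.38), and at RPL33A (2.96) and RPL33B (2.05).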
